A study of Mus musculus with 4 samples.

Results

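The NF-kB feedback and inflammatory mediator genes are 43 genes that encode the NF-kB transcription factors, their inhibitors, the Toll-like receptor pathway that activates them and inflammatory products they induce. They were taken by name: each was represented by the probe set whose platform annotation gives exactly 1 gene symbol and whose mean over the 4 arrays was highest. This gave values for 41 of the 43, out of 18193 genes in all. Nfkb1 and Ripk2 had no such probe set in the annotation used and were not analysed here.

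The values come from mouse haematopoietic stem cells (HSC) sorted as KLS CD48- CD150+ cells, where KLS stands for Kit+, lineage-, Sca-1+. There were 2 Rb family deficient pools (labelled Rb -/- p130 -/- p107-/-) beside 2 pools called wild type (labelled Rb +/+ p130 +/+ p107-/-), each of 3 mice, so p107 (Rbl1) is -/- in every pool and the groups differ by label in Rb and p130 (Rbl2). By the labels, which carry the same protocol for all 4 pools, adult mice received tamoxifen to start recombination and their cells were sorted 2 weeks later. The sources used here name neither the strain and exact age nor the allele that supplies the recombinase.

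NF-kB proteins are dimers of Rel family subunits that inhibitors of the IkB family hold in the cytoplasm. Toll-like and cytokine receptors signal through MyD88, IRAK kinases and the IKK kinases, which mark IkB for destruction and so free NF-kB. NF-kB then induces chemokines and cytokines and also its own inhibitors, such as IkB alpha (Nfkbia) and A20 (Tnfaip3), which close the loop. HSC carry Toll-like and interleukin-1 receptors and respond to inflammatory signals.

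A few inflammatory products of the pathway stood higher in the Rb family deficient pools. On the probe sets taken, most inhibitors and 3 of the 4 measured subunits lay close to the wild type values, while Relb differed by -0.67. Some other probe sets of Nfkbia and Nfkbiz stood higher. Cxcl2, Ptgs2, Il6 and Ier3 were at least 2-fold higher, Gadd45b was 1.72-fold higher and the kinase gene Ikbke was 1.85-fold lower. Limma called 0 members at an adjusted p under 0.05, as it called 0 of all 18193 genes (0%), so none of these differences passed the test over all genes. At an unadjusted p under 0.05, 5 of 41 members were higher (12.2%) and 1 was lower (2.44%), where 2.19% of all genes were higher and 4.04% lower. Of all genes, 0.528% were at least 2-fold higher and 0.275% at least 2-fold lower, against 4 members higher (9.76%) and 0 lower. Both deficient pools lay above both wild type pools for 9 members and below them for 10, where 17.0% and 18.5% of all genes did so. The 19 members with separated pools make 46.3% of the 41. The members were chosen with earlier results of these data known, so these shares are a description and not a test. With 1 pool left out, 1 group holds only 1 pool and its spread is not measured, so only differences are given for those fits. The median difference was 0.03 over the members and -0.0038 over all genes, on the log2 scale of deficient minus wild type.

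**Figure D1:**
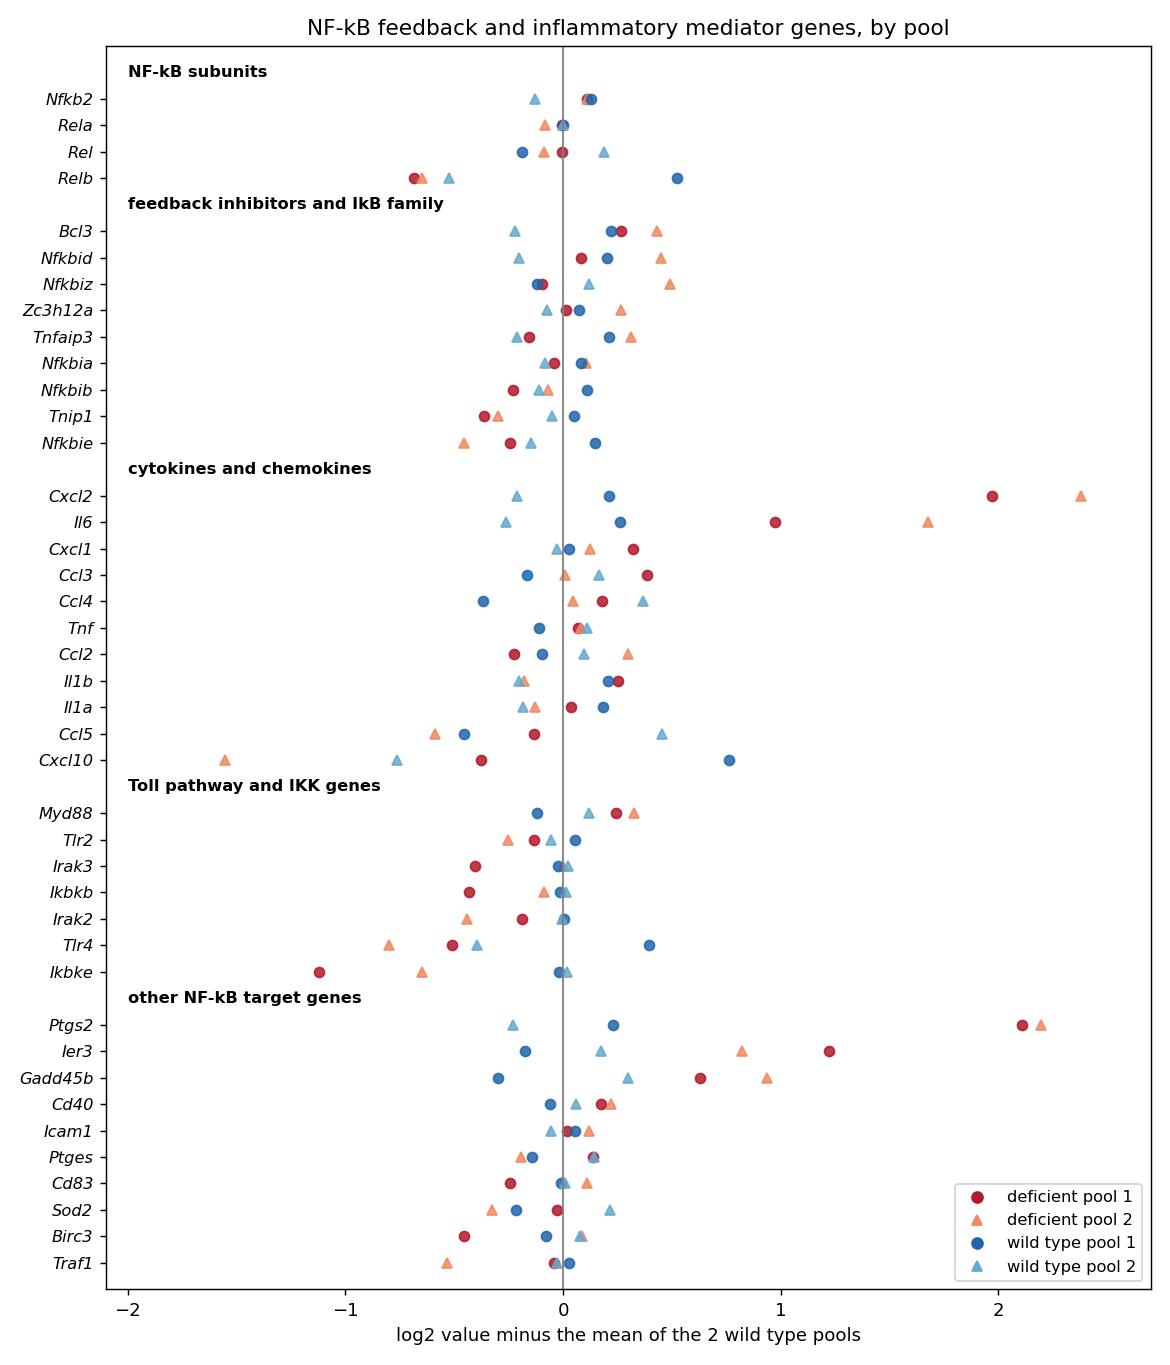
Log2 value of each measured member in each of the 4 pools, minus the mean of the 2 wild type pools, by role (red and orange, deficient pools 1 and 2; dark and light blue, wild type pools 1 and 2). Cxcl2, Ptgs2, Il6 and Ier3 have both deficient pools far to the right of both wild type pools, and most other members have all 4 pools near 0.

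The NF-kB subunits had small differences with 1 exception. Rela, which encodes p65, the main activating subunit, stood at log2 values of 10.17 and 10.09 in deficient pools versus 10.17 and 10.17 in wild type. Rela is counted among the members with both deficient pools below, but only by the third decimal (10.165 against 10.169 at the closest). Its difference was -0.04 (SE 0.14, limma adjusted p = 0.973, with n = 2 pools in this and every group), with a 95% interval from -0.40 to 0.32. The precision of 4 arrays therefore leaves room for a difference of Rela of up to about this size in either direction. Rel, which encodes c-Rel, stood at 5.35 and 5.26 versus 5.16 and 5.54, so its pools overlapped.

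Relb, a subunit of the alternative NF-kB pathway, stood at 5.73 and 5.77 in deficient pools versus 6.94 and 5.90 in wild type. The groups did not overlap, but the gap came almost wholly from wild type pool 1. The difference was -0.67 (SE 0.35, limma adjusted p = 0.814), and it was -0.14 without wild type pool 1. Nfkb2, which encodes p100, the precursor of the alternative subunit p52, depended on the probe set. Its brightest probe set, with an _x_at name that marks possible cross-hybridisation, differed by 0.11 (SE 0.16), and the other by -0.36 (SE 0.25). The median over the 4 measured subunits was -0.04.

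Of the 9 feedback inhibitors and IkB family genes, 6 lay above 0 and 3 below on their brightest probe sets, with a median of 0.08. None of these probe sets had an unadjusted limma p under 0.05, but dimmer ones of Nfkbia and Nfkbiz did. Nfkbia stood at 12.84 and 12.98 in deficient pools versus 12.96 and 12.80 in wild type, differing by 0.03 (SE 0.15, limma adjusted p = 0.983). Those pools overlapped, but Nfkbia had 5 probe sets and they did not give the same picture. One dimmer probe set stood at 11.05 and 10.65 versus 10.27 and 10.41, differing by 0.51 (SE 0.19). The second brightest stood at 12.30 and 12.02 versus 11.80 and 11.61, differing by 0.46 (SE 0.17). In both of these the deficient pools lay above the wild type pools, with an unadjusted limma p of 0.042 and 0.044. The remaining probe sets differed by -0.08 (SE 0.16) and 0.35 (SE 0.22), and the mean of all 5 differed by 0.25.

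Nfkbiz, an atypical nuclear IkB protein that helps induce Il6 and other secondary response genes, also varied with the probe set. The brightest stood at 8.47 and 9.06 versus 8.45 and 8.69, with overlapping pools and a difference of 0.20 (SE 0.24). The second brightest stood at 8.45 and 7.88 versus 7.33 and 7.50, differing by 0.74 (SE 0.23), and the third differed by 0.39 (SE 0.31). All 3 lay above 0, and their mean differed by 0.44. Bcl3, another nuclear IkB protein, stood at 7.68 and 7.84 versus 7.63 and 7.19, so its deficient pools lay above both wild type pools by a narrow margin (difference 0.35, SE 0.20). Nfkbid, the third nuclear member, stood at 7.56 and 7.93 versus 7.68 and 7.28, with overlap.

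Tnfaip3, the ubiquitin-editing enzyme A20 that shuts off IKK activation, stood at 8.07 and 8.54 in deficient pools versus 8.43 and 8.01 in wild type, differing by 0.08 (SE 0.24, limma adjusted p = 0.971). The pools of either group differed more from each other than the groups did. Tnip1, which binds A20, went the other way at 8.77 and 8.83 versus 9.18 and 9.08. Its difference of -0.33 (SE 0.14, limma adjusted p = 0.800) kept its sign with each pool left out, from -0.38 to -0.28. Nfkbie, which encodes IkB epsilon, was lower in both deficient pools at 8.39 and 8.18 versus 8.79 and 8.49, with -0.61 (SE 0.27) on its other probe set. Nfkbib (-0.15, SE 0.16) and Zc3h12a, an RNase that degrades cytokine mRNA (0.14, SE 0.17), had overlapping pools.

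**Figure D2:**
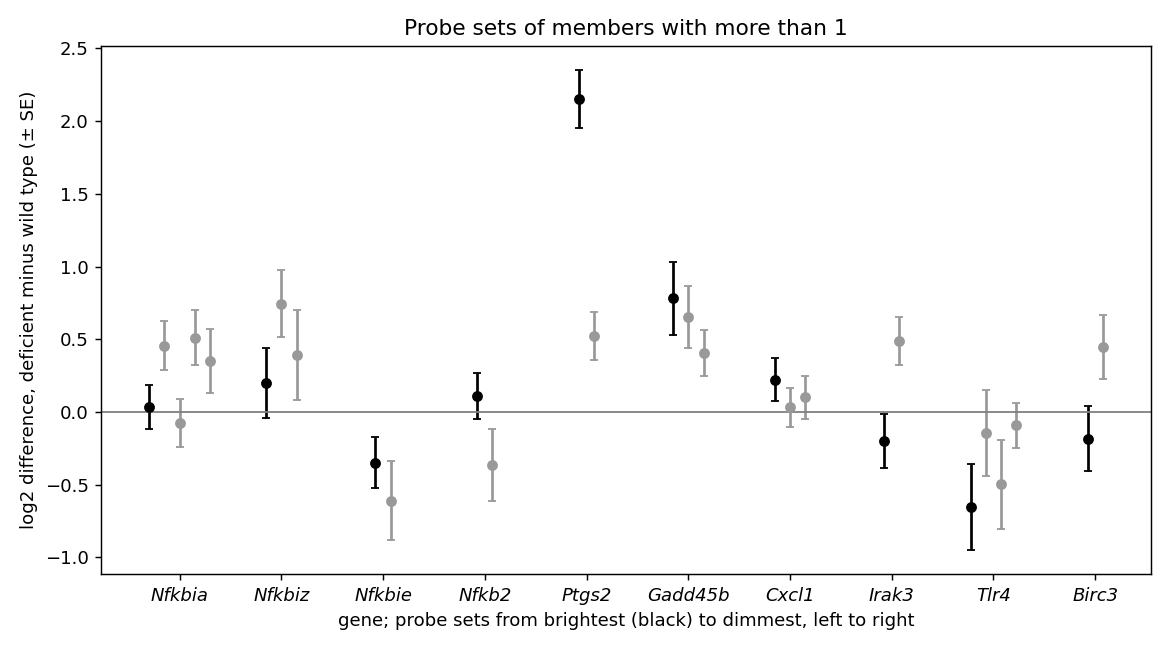
Log2 difference, deficient minus wild type, with its SE, for every probe set of 10 members that have more than 1, from the brightest (black) to the dimmest within each gene. The brightest Nfkbia and Nfkbiz probe sets lie at 0.03 and 0.20 while dimmer ones reach 0.51 and 0.74, and those of Nfkb2, Irak3 and Birc3 lie on both sides of 0.

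In all, 18 members had more than 1 probe set, and for 6 of these the probe sets lay on both sides of 0. These 6 were Nfkb2, Nfkbia, Irak3, Ikbkb, Birc3 and Ptges.

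The cytokines and chemokines held the largest difference of the members. Cxcl2 encodes a chemokine that draws neutrophils. It stood at 6.64 and 7.05 in deficient pools versus 4.88 and 4.45 in wild type, 4.52-fold higher (log2 difference 2.18, SE 0.23, 95% interval 1.60 to 2.75, limma adjusted p = 0.577). By limma p it ranked 5 of 18193 genes. The gap between the groups was several times the distance between pools of a group, and with 1 pool left out the difference ran from 1.97 to 2.39.

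Il6, the cytokine interleukin-6, stood at 5.49 and 6.19 in deficient pools versus 4.77 and 4.25 in wild type, 2.51-fold higher (log2 difference 1.33, SE 0.30, limma adjusted p = 0.761). Deficient pool 2 was the highest, and without it the difference was 0.97. Cxcl2 and Il6 have 1 probe set each, so no second measurement of either was at hand. Both are dim on these arrays, at the 33.9th and 25.3rd percentile of mean signal over all genes. No detection calls were used here, so whether the wild type values were above background is not known.

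Cxcl1, the close relative of Cxcl2 and its neighbour on chromosome 5, did not show a difference of that size. Its brightest probe set stood at 7.48 and 7.29 versus 7.19 and 7.13, differing by 0.22 (SE 0.15, 95% interval -0.16 to 0.61). That probe set carries an _x_at name, and the one with an _s_at name differed by 0.03 (SE 0.13). The only Cxcl1 probe set with neither name stood at 4.14 and 3.95 versus 3.95 and 3.95, differing by 0.10 (SE 0.15). It was far dimmer than the others, and whether it was above background is not known, so it may miss a difference. The interval of the Cxcl1 difference ended below the lower end of the Cxcl2 interval. The difference between the genes was not tested, and the level of one probe set cannot be set against that of another.

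The other 8 genes of this group were near 0 or had overlapping pools. Tnf, the cytokine tumour necrosis factor, stood at 6.85 and 6.86 versus 6.67 and 6.89, differing by 0.08 (SE 0.15). Il1b stood at 6.52 and 6.09 versus 6.47 and 6.06, differing by 0.04 (SE 0.23), and Il1a differed by -0.05 (SE 0.19). The interleukin-1 and tumour necrosis factor genes thus lay within the spread of the pools. Il1a was very dim, at the 2.93rd percentile of mean signal, so a difference in it may have gone unseen. The monocyte and T cell chemokines Ccl2, Ccl3 and Ccl4 differed by 0.04, 0.20 and 0.11, with SE of 0.22, 0.21 and 0.27, and Ccl5 by -0.36 (SE 0.34). Cxcl10, an interferon-induced chemokine, stood at 6.84 and 5.66 in deficient pools versus 7.97 and 6.45 in wild type. Its difference of -0.97 (SE 0.61, limma adjusted p = 0.842) was the lowest of all members, but pools of 1 group lay over 1 log2 unit apart. It was -1.73 without wild type pool 2 and -0.20 without wild type pool 1. Over the 11 genes, 8 lay above 0 and the median was 0.08.

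Promoter sequences are shown for the 4 members that were at least 2-fold higher with separated pools, since NF-kB acts through a short DNA element upstream of its targets. Cxcl1 was added after its value was seen, as the neighbouring chemokine gene that did not differ by as much. Each is the 250 bases before the annotated start, 5′ to 3′, from RefSeq on GRCm38.p6. Capitals mark matches to the kappa B consensus or to the AP-1 motif TGACTCA on either strand.

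Cxcl2 (chr5:90903649-90903898, plus strand): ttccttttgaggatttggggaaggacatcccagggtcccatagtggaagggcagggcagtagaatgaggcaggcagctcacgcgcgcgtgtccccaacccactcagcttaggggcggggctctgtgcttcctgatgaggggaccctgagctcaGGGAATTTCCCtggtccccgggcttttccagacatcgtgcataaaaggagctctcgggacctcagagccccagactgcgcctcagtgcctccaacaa
Cxcl1 (chr5:90890995-90891244, plus strand): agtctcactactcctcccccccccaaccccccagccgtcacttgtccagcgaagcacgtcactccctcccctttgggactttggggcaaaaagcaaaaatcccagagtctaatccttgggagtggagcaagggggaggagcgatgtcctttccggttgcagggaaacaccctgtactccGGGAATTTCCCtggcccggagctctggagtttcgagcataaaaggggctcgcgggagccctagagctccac
Il6 (chr5:30012864-30013113, plus strand): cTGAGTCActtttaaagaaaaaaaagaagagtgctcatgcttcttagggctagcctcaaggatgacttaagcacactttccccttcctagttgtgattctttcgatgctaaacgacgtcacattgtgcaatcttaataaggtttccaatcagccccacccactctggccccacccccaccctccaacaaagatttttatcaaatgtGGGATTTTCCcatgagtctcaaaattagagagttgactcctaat
Ier3 (chr17:35821463-35821712, plus strand): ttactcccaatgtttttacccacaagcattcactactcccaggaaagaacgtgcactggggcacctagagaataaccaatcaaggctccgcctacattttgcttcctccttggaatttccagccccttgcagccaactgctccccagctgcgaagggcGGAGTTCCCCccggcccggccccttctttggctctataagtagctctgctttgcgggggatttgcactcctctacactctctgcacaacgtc
Ptgs2 (chr1:150099781-150100030, plus strand): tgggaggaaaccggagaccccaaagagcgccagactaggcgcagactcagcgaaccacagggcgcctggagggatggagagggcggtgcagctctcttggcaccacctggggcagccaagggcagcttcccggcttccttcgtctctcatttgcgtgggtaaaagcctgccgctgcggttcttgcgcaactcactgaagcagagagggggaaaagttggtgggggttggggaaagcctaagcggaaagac

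The Cxcl2 and Cxcl1 windows held the same kappa B letters, GGGAATTTCCC, which match on both strands in overlapping frames. The run began 97 bases before the start in Cxcl2 and 71 bases before it in Cxcl1. The measured differences were 2.18 for Cxcl2 and 0.22 for Cxcl1, and whether this element bears on either was not tested. The Il6 window held GGGATTTTCC at 44 to 35 bases before the start and the AP-1 letters TGAGTCA near its upstream end. The Ier3 window held GGAGTTCCCC, a match on the opposite strand, at 92 to 83 bases. The Ptgs2 window held no match to the kappa B consensus, AP-1 or the cAMP response element TGACGTCA, which says only that these letters are not in these 250 bases.

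Of the 32 measured members with a promoter window in the RefSeq table, 14 had at least 1 kappa B match, where 8.23% of the 27025 genes in that table did. AP-1 matched in 5 of the 32, against 5.16% of genes, and the cAMP response element in 1 of the 32 (Nfkbid), against 1.77%. Genes with several annotated starts count once if any window matched. The kappa B group included genes that lay close to the wild type values, such as Nfkbia, Rel, Sod2 and Tnfaip3, and genes that lay lower, such as Nfkbie, Tnip1 and Cxcl10. The members were listed as genes of the NF-kB pathway and its products, so these shares follow in part from the list and are not a result of these arrays. A match is a description of the letters and does not show that a factor binds there.

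Among the other NF-kB target genes, Ptgs2 showed the lowest p of all members and ranked 3 of 18193 genes. Ptgs2 encodes the inducible cyclooxygenase, which makes prostaglandin precursors. It stood at 6.42 and 6.50 in deficient pools versus 4.54 and 4.08 in wild type, 4.45-fold higher (log2 difference 2.15, SE 0.20, 95% interval 1.64 to 2.66, limma adjusted p = 0.534). The groups were well apart and the deficient pools nearly equal. A second, dimmer Ptgs2 probe set stood at 4.17 and 4.42 versus 3.69 and 3.86, also separated but by only 0.52 (SE 0.16). With the mean of both probe sets Ptgs2 differed by 1.34. Ptges, the prostaglandin E synthase that acts after it, stood at 6.25 and 5.92 versus 5.97 and 6.26, differing by -0.03 (SE 0.19). Its dimmer probe sets differed by 0.05 (SE 0.14) and -0.24 (SE 0.14).

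Ier3, an early response gene that modulates cell survival, stood at 11.83 and 11.43 in deficient pools versus 10.43 and 10.78 in wild type, 2.03-fold higher (log2 difference 1.02, SE 0.21, limma adjusted p = 0.761). It is among the brightest genes on the arrays, at the 94.1st percentile of mean signal, so unlike Cxcl2, Il6 and Ptgs2 it was measured well above the dim range. Gadd45b, a stress-induced gene that restrains JNK signalling downstream of NF-kB, stood at 8.14 and 8.45 versus 7.21 and 7.81, 1.72-fold higher (log2 difference 0.78, SE 0.25, limma adjusted p = 0.761). Its dimmer probe sets differed by 0.65 (SE 0.21) and 0.41 (SE 0.16). Gadd45b was thus higher on all 3 of its probe sets, and without wild type pool 1 the difference was 0.48. With each pool left out in turn the Gadd45b difference ran from 0.48 to 1.08.

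The remaining 7 targets lay within 0.3 log2 units of 0. Icam1, an adhesion molecule, stood at 9.25 and 9.35 versus 9.29 and 9.18, differing by 0.07 (SE 0.15). Sod2, the mitochondrial superoxide dismutase and a strong NF-kB target in many cells, stood at 11.38 and 11.08 versus 11.19 and 11.63, differing by -0.18 (SE 0.21). Both had overlapping pools, as did Cd83 (-0.07, SE 0.18) and the anti-apoptotic ubiquitin ligase gene Birc3 (-0.18, SE 0.22), whose second probe set differed by 0.45 (SE 0.22). The adaptor gene Traf1 differed by -0.29 (SE 0.21) and its second probe set by -0.57 (SE 0.21). The co-stimulatory receptor gene Cd40 differed by 0.20 (SE 0.14). For Traf1 and Cd40 the groups were separated, Traf1 lower and Cd40 higher in the deficient pools. Over the 10 targets 5 lay above 0, and the median was 0.02.

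**Figure D3:**
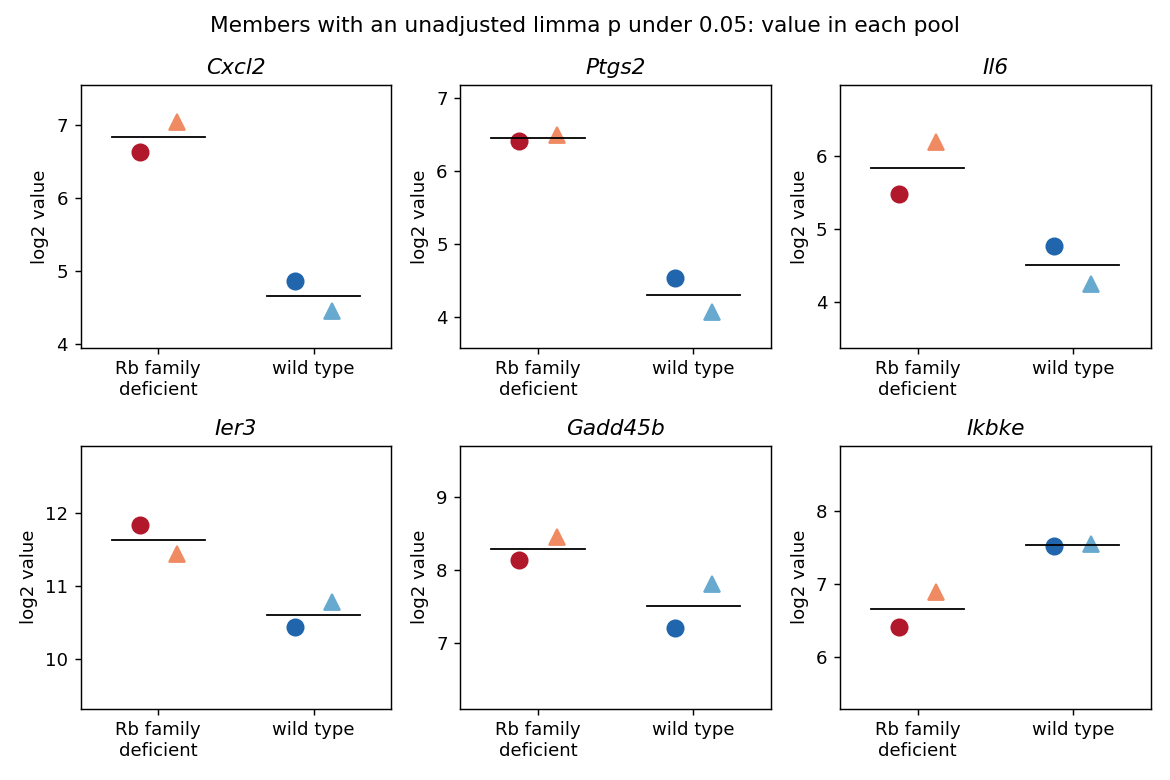
Log2 value in each pool for the 6 members with an unadjusted limma p under 0.05 (left, Rb family deficient pools; right, wild type pools; circles, pool 1; triangles, pool 2; horizontal lines, group means). All axes span the same number of log2 units. In each panel the 2 groups do not overlap, with the widest gaps for Cxcl2 and Ptgs2 and with Ikbke alone lower in the deficient pools.

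The Toll pathway and IKK genes mostly lay below the wild type values, 6 of 7 below 0 with a median of -0.26. In 5 of the 7 both deficient pools lay below both wild type pools, where 18.5% of all genes did. Ikbke encodes IKK epsilon, a kinase of the antiviral interferon branch. It stood at 6.42 and 6.89 in deficient pools versus 7.52 and 7.56 in wild type, 1.85-fold lower (log2 difference -0.88, SE 0.20, 95% interval -1.39 to -0.37, limma adjusted p = 0.761). The wild type pools were nearly equal and deficient pool 1 was the lowest. Without deficient pool 1 the difference was -0.65.

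Tlr4, the receptor for bacterial lipopolysaccharide, stood at 7.10 and 6.81 in deficient pools versus 8.005 and 7.211 in wild type, differing by -0.65 (SE 0.29, limma adjusted p = 0.802). Its 3 dimmer probe sets differed by -0.15, -0.50 and -0.09, and the mean of all 4 by -0.35. Without wild type pool 1 the difference was -0.26, so most of it came from that pool. Tlr2, the receptor for bacterial lipoproteins, stood at 7.21 and 7.09 versus 7.39 and 7.29, a smaller difference of -0.19 (SE 0.15).

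The kinase gene Irak2 stood at 6.31 and 6.06 versus 6.50 and 6.50 (difference -0.32, SE 0.16), and Ikbkb, the catalytic IKK subunit IKK beta, at 10.34 and 10.69 versus 10.76 and 10.79 (difference -0.26, SE 0.17). In both genes every deficient pool lay below the wild type pools, but the 4 dimmer Ikbkb probe sets lay between 0.02 and 0.13. Irak3, an inhibitory IRAK protein, had overlapping pools and a difference of -0.20 (SE 0.19), with its second probe set at 0.49 (SE 0.16). Myd88, the adaptor shared by most Toll-like receptors, went the other way at 10.04 and 10.12 versus 9.68 and 9.91 (difference 0.28, SE 0.16, limma adjusted p = 0.825).

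**Figure D4:**
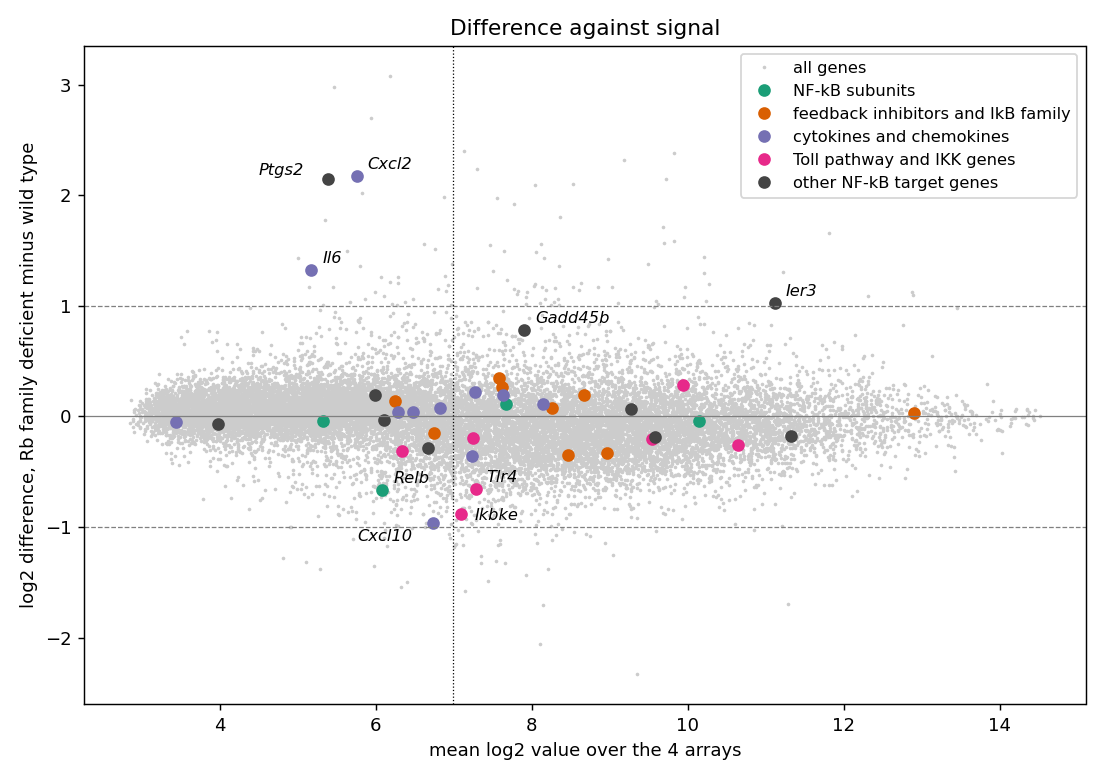
Log2 difference, deficient minus wild type, against the mean log2 value over the 4 arrays, for all 18193 genes (grey) and the 41 measured members (coloured by role). Dashed lines mark 2-fold and the dotted line the median signal. Cxcl2, Ptgs2 and Il6 lie left of the dotted line and Ier3 far to its right.

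Other genes of the pathway, a list of 46 that are not members, were measured for 41. Limma called 0 of them at an adjusted p under 0.05, and their median difference was -0.02. Unadjusted, 3 were higher (7.32%) and 2 lower (4.88%) at a p under 0.05, where 2.19% of all genes were higher and 4.04% lower. Il1r2, the decoy receptor that binds interleukin-1 without signalling, stood at 7.79 and 7.55 versus 6.21 and 6.38 (difference 1.38, SE 0.17, limma adjusted p = 0.761). Zfp36, which encodes the mRNA decay factor tristetraprolin, stood at 9.77 and 10.49 versus 8.89 and 9.33 (difference 1.02, SE 0.29). Both genes had separated groups, but the 2 deficient pools of Zfp36 lay 0.71 apart, further than its nearest pools of different groups. Cd14, the lipopolysaccharide co-receptor, differed by 0.68 (SE 0.20) and the endosomal receptor gene Tlr7 by 0.37 (SE 0.19). Lower values were seen for the adaptor gene Traf5 (-0.43, SE 0.15), the A20-binding gene Tnip2 (-0.43, SE 0.15), Pdlim2 (-0.46, SE 0.19), which promotes p65 degradation, and Btrc (-0.43, SE 0.19), the ubiquitin ligase subunit that recognises IkB. These 8 were chosen for the smallest p in each direction, so their separated groups are part of the choice. Over the 41 genes 11 had separated groups (26.8%), where 35.5% of all genes did. With all probe sets of a gene averaged, Tlr7 differed by 0.0032, Traf5 by -0.14 and Btrc by -0.11.

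The arrays were alike in most respects but other gene lists also differed between the groups. Array medians ran from 5.94 to 6.02, and Pearson's r across genes, which are not independent replicates, was between 0.983 and 0.990 for every pair of pools. The HSC and gate genes were bright (11 of 12 measured, mean log2 value 9.54 and 9.89 in deficient pools versus 9.90 and 10.00 in wild type), but 8 of the 11 lay below 0 and the median difference was -0.19. In 5 of the 11 both deficient pools lay below both wild type pools, where 18.5% of all genes did so. At an unadjusted p under 0.05, 2 were lower (18.2%, where 4.04% of all genes were). These were Procr, which encodes the HSC surface marker EPCR (-0.85, SE 0.17), and Mecom, an HSC transcription factor gene (-0.69, SE 0.16). Of the gate genes, Kit differed by -0.59 (SE 0.28), with both deficient pools below both wild type pools. The CD150 gene Slamf1 (0.24, SE 0.40) and Cd48 (-0.03, SE 0.42) overlapped between groups. The 3' minus 5' difference of the beta-actin control probe sets, which tracks RNA degradation, was 3.13 and 2.95 in deficient pools versus 2.32 and 2.81 in wild type. For the Gapdh control it was 2.79 and 2.50 versus 2.40 and 2.58, where the groups overlapped.

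Markers of mature neutrophils, cells that themselves make Cxcl2 and other members, were above 0 for 10 of 13, with a median difference of 0.77. Their mean log2 value was 10.13 and 9.44 in deficient pools versus 8.81 and 9.32 in wild type. Of the 13, 4 were higher (30.8%) and 1 was lower (7.69%) at an unadjusted p under 0.05, where 2.19% of all genes were higher and 4.04% lower. The lineage- gate is meant to remove these cells. In these bulk arrays a different number of cells of a type and a different amount of RNA per cell cannot be told apart. Monocyte and macrophage markers had a median difference of 0.06 over 12 genes, with pool means of 6.05 and 5.95 versus 5.79 and 6.07, and 0 at an unadjusted p under 0.05.

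Median differences of the remaining marker lists were 0.26 over 7 B cell genes, 0.04 over 8 T and NK cell genes and 0.20 over 9 endothelial and stromal genes. Immediate early genes, which respond within minutes to stimulation and to cell handling, were above 0 for 13 of 13, with a median difference of 0.83. Their mean was 8.92 and 9.65 in deficient pools versus 8.14 and 8.43 in wild type. At an unadjusted p under 0.05, 5 of the 13 were higher (38.5%) and 0 lower, where 2.19% of all genes were higher and 4.04% lower. Ier3 is itself an early response gene. The part of neutrophil RNA, of cell handling and of RNA quality in the members' differences was not tested.

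**Figure D5:**
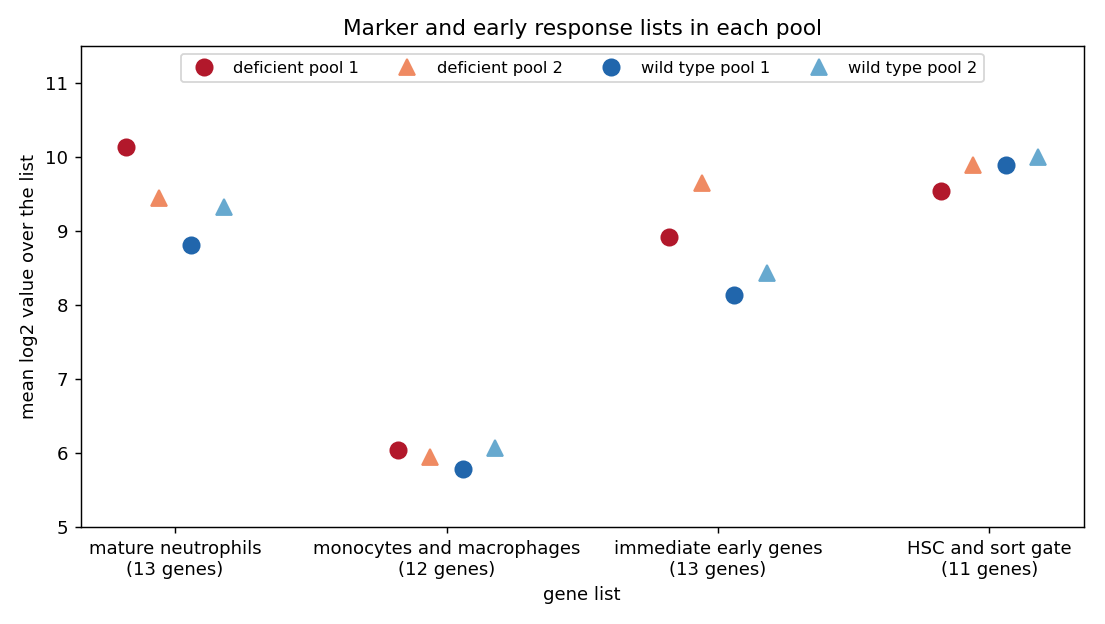
Mean log2 value over each of 4 gene lists in each pool, with the number of genes measured under each name. The immediate early genes have both deficient pools (8.92 and 9.65) above both wild type pools (8.14 and 8.43), the neutrophil markers likewise by a smaller margin (9.44 against 9.32 at the closest), the HSC and gate genes have both deficient pools below both wild type pools (9.89 against 9.90 at the closest), and the monocyte list overlaps.

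The choice of genes by signal bears on the counts. Cxcl2, Ptgs2 and Il6 are among the 17 members below the median signal of all genes. With genes below that median left out, 2 members were higher at an unadjusted p under 0.05 (Ier3 and Gadd45b) and 1 was lower, where 176 of the 9097 genes kept were higher and 408 lower. In that set 1 member was at least 2-fold higher. Centring every array on its median left the members' counts at 5 higher and 1 lower, while over all genes the unadjusted counts went from 399 higher and 735 lower to 601 and 530.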

How the data were processed

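Affymetrix arrays were run on 4 mouse samples of sorted HSC, 2 Rb family deficient and 2 wild type pools, grouped by their titles. The authors deposited log2 values made with RMA, which the submitters' processing notes name together with limma, without versions. Because RMA aligns the arrays' distributions, shifts in RNA content of whole cells are lost, and folds of dim probe sets are compressed. That values from 2.65 to 14.9 are log2 was judged from their range. No detection calls were used, and precision is limited by having 4 arrays.

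Of 45101 probe sets, 34945 had exactly 1 gene symbol in the 2016 platform annotation and were not array controls. Symbols were updated by Entrez ID with a RefSeq table of GRCm38.p6. Differences were fitted as deficient minus wild type over all 18193 genes with limma 3.58.1 in R 4.3.3 (lmFit, eBayes, no block, Benjamini-Hochberg adjustment, threshold 0.05). Every SE is limma's moderated SE, every interval is at 95%, and the script was tested on simulated data. Differences of single probe sets are from the same fit over all probe sets. With 2 pools per group an exact permutation test cannot go below p = 0.333. The pools are labelled as separate, but nothing says whether any mouse entered more than 1, so p-values measure only the spread between these pools.

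All measured members were named, and of the other pathway genes the 4 in each direction with the smallest p. Promoters were printed for members at least 2-fold higher with separated pools. The members and lists were chosen with earlier results of these data known. Alternatives were other probe set choices, median centring, a filter on dim genes, an intensity trend in eBayes, leaving out each pool, and the replicate number as a block. Motifs were searched on both strands; the AP-1 and cAMP element letters do not contain each other.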

Additional observations from a re-analysis of the deposited data

How the results depend on the processing

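The sign of the difference was the same for 23 of 41 members under each of the 11 alternatives that kept the gene, Cxcl2, Ptgs2, Il6, Ier3, Gadd45b and Ikbke among them, and 0 genes passed the adjusted threshold in any. With 1 pool left out, the count of members at an unadjusted p under 0.05 ran from 4 to 5 higher and 1 to 4 lower (4 without wild type pool 2, with Cxcl10, Relb and Tlr4 added to Ikbke), at least 2-fold lower members from 0 to 3, and members with separated pools from 11 to 18 higher and 14 to 17 lower, the last because fewer pools separate more easily. Medians then ran from -0.10 to 0.27 for inhibitors, 0.030 to 0.19 for cytokines, -0.40 to -0.25 for Toll genes and 0.025 to 0.12 for other targets.

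Genes near 0 turned sign with a pool left out: Nfkb2 from -0.019 to 0.24, Rel from -0.23 to 0.14, Nfkbia from -0.050 to 0.11, Nfkbiz from -0.10 to 0.49, Tnfaip3 from -0.16 to 0.31, Ccl2 from -0.22 to 0.30, Ccl4 from -0.26 to 0.48, Ccl5 from -0.82 to 0.10, Il1a from -0.23 to 0.14, Il1b from -0.18 to 0.25, Tnf from -0.036 to 0.19, Irak3 from -0.40 to 0.0011, Ptges from -0.20 to 0.14, Birc3 from -0.46 to 0.089, Cd83 from -0.24 to 0.11 and Sod2 from -0.39 to 0.040. With specific probe sets first, Nfkb2 was -0.36 and the subunit median -0.20. With all probe sets of a gene averaged, Nfkb2 was -0.13, Irak3 0.14, Ikbkb 0.019 and Birc3 0.13, and the medians were -0.19 for Toll genes and 0.10 for other targets. In that setting 3 members were lower at an unadjusted p under 0.05, where 738 of all 18193 genes were. Median centring moved Rel to 0.0092, Rela to 0.012, Il1a to 0.0078, Ptges to 0.026 and the Toll median to -0.21. Without dim genes 2 members were higher at an unadjusted p under 0.05, 1 was at least 2-fold higher, 5 had separated pools on the higher side and the subunit median was 0.034, since fewer genes were tested.

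With the replicate block 3 members were lower (Cxcl10 and Tlr4 beside Ikbke) and 5 higher, where 457 of all 18193 genes were lower and 281 higher. Deviations of same-numbered pools correlated at -0.19, and a crossed pairing, added after seeing the data, gave 5 higher and 1 lower, where 518 and 1151 of all genes were. The cause of these shifts was not tested.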
